A study of Caenorhabditis elegans with 8 samples.

Results

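The Piwi-interacting RNA (piRNA) biogenesis and small RNA sorting genes described here are prde-1, tofu-6, pid-1, tofu-1, tofu-2, parn-1, henn-1, simr-1 and hrde-2. They are 9 of the 46934 gene identifiers counted in dissected gonads of Caenorhabditis elegans, and they were found by symbol. The list was selected on measured values as well as on function: the lower levels of tofu-2, pid-1, simr-1 and hrde-2 in one or both mutants against the wild type were known when it was drawn up. The values of both mutants against the wild type are therefore a description and support nothing by themselves. All 9 genes were measured in all 8 libraries, with 77 to 9198 reads per gene and library, and all 9 passed the filter on low counts.

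The 3 genotypes were compared to ask how SIN-3, the scaffold of a histone deacetylase co-repressor complex, and HDA-3, a class I histone deacetylase, shape the germline transcriptome. They were the wild type (wt, 3 libraries), sin-3(syb2172) (3 libraries) and hda-3(ok1991) (2 libraries), with no other allele or treatment named. The labels state 3 replicates per strain, but only 2 hda-3 libraries were given. Each library was made from the gonads of 9 to 12 young adults, dissected without anaesthetic, by a Smart-seq2 type amplification. What the alleles change in each gene is not stated in the labels. The sin-3 gene had 0 to 2 reads in the sin-3 libraries and 606 to 2242 elsewhere, while the hda-3 gene kept 435 and 536 reads in the hda-3 libraries. A library held 14550417 to 24389531 reads on genes, of which nuclear ribosomal RNA took 41.8 to 79.0%. The library that stood apart most was sin-3 replicate 3, with the highest ribosomal share and 5109782 reads outside it.

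In the worm germ line piRNAs are transcribed one by one as short capped precursors, with PRDE-1 acting at their promoters. The PETISCO complex, which contains TOFU-6 and PID-1, binds the capped precursor, and the PUCH nuclease, built of TOFU-1, TOFU-2 and a Schlafen-like partner, cuts its start. The exonuclease PARN-1 trims the other end, the methyltransferase HENN-1 modifies it, and the mature piRNA guides the Argonaute PRG-1 to target transcripts. Silencing is then carried by secondary small RNAs. The Tudor protein SIMR-1 links piRNA recognition to their synthesis, and HRDE-2 is needed for sorting the right small RNAs into the nuclear Argonaute HRDE-1.

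Among the 9 genes, the 4 of PETISCO and PUCH were the most abundant in wt gonads. Levels between genes are given per length, as reads per kilobase of exon per 1000000 reads (RPKM, on the scaled library sizes). In wt they were 233 ± 46.8 RPKM for tofu-1 (SD, n = 3, as for the other wt levels), 194 ± 44.7 for pid-1, 122 ± 32.6 for tofu-2 and 111 ± 10.6 for tofu-6. These 4 genes formed an upper group in which each overlapped its neighbour in the order. The level of hrde-2 was 56.3 ± 6.77 RPKM and overlapped no neighbour. Then came simr-1 at 17.2 ± 1.48 and henn-1 at 15.98 ± 2.92 RPKM, which overlapped each other. The lowest were prde-1 at 5.33 ± 1.16 and parn-1 at 4.62 ± 0.884 RPKM, which also overlapped. In sin-3 gonads the order ran from tofu-1 at 117 ± 15.1 RPKM (n = 3) to parn-1 at 4.86 ± 0.822. There tofu-2, at 42.5 ± 0.699 RPKM, lay below every library of tofu-6, whereas in wt the levels of these genes overlapped. In hda-3 gonads tofu-2 was at 48.9 ± 2.02 RPKM (n = 2), again below every library of tofu-6 and pid-1.

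Transcription of precursors was represented by prde-1, which lies on chromosome V (15538244 to 15547086, plus strand, WBcel235). Its level in counts per 1000000 counts (CPM) was 7.27, 11.3 and 10.2 for wt replicates 3, 4 and 5, compared with 15.01, 12.3 and 11.7 for the same replicate numbers of sin-3, and with 9.11 and 9.15 for replicates 4 and 5 of hda-3. Libraries of every gene below are given in this order. CPM rests on library sizes scaled by TMM factors, so overlap and direction between groups depend on that scaling. All sin-3 libraries were above all wt libraries, and the hda-3 libraries lay inside the wt range. The log2 fold change was 0.43 for sin-3 (standard error, SE, 0.25; 95% interval -0.12 to 0.99) and -0.073 for hda-3 (SE 0.28; -0.69 to 0.54), and neither difference was called. A call here is an adjusted p under 0.05 by edgeR's quasi-likelihood test over 10302 genes.

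Of the PETISCO genes, pid-1 was called lower in both mutants and tofu-6 in sin-3. TOFU-6 is the RNA-binding core subunit, and tofu-6 (chromosome II, 5421248 to 5422737, plus strand) read 148, 123 and 133 CPM for wt, then 88.0, 67.9 and 64.5 CPM for sin-3 and 97.2 and 90.8 CPM for hda-3. Every mutant library was below every wt library, and sin-3 lay below hda-3. Its log2 fold change was -0.88 for sin-3 (SE 0.20; -1.31 to -0.44) and -0.52 for hda-3 (SE 0.23; -1.01 to -0.026), the latter not called. PID-1 is the adaptor that directs PETISCO to piRNA precursors, and pid-1 (chromosome II, 7689681 to 7690556, minus strand) read 153, 98.3 and 149 CPM for wt, then 82.1, 59.8 and 42.1 CPM for sin-3 and 49.5 and 53.7 CPM for hda-3. The mutants overlapped each other and stood apart from wt. Log2 fold changes of -1.13 for sin-3 (SE 0.27; -1.71 to -0.55) and -1.37 for hda-3 (SE 0.31; -2.04 to -0.70) were estimated, the latter the lowest of the 9 genes in hda-3.

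The PUCH genes held the lowest value of the 9 in sin-3. For tofu-1 (chromosome V, 9981147 to 9982766, plus strand) the libraries read 349, 271 and 407 CPM for wt, then 191, 175 and 147 CPM for sin-3 and 176 and 175 CPM for hda-3. No mutant library reached the lowest wt library. Relative to wt the log2 fold change was -0.9997 for sin-3 (SE 0.26; -1.57 to -0.43) and -0.96 for hda-3 (SE 0.30; -1.61 to -0.32). TOFU-2 carries the catalytic residues of the nuclease, and tofu-2 (chromosome V, 7049434 to 7051248, minus strand) read 161, 124 and 212 CPM for wt, then 57.4, 58.8 and 56.9 CPM for sin-3 and 64.5 and 68.4 CPM for hda-3. On these TMM-scaled values the libraries of each mutant lay close together, while the wt libraries were spread widely. As shares of reads outside ribosomal RNA, the sin-3 libraries were spread widely as well. Its log2 fold changes of -1.52 for sin-3 (SE 0.22; -2.01 to -1.03) and -1.32 for hda-3 (SE 0.25; -1.87 to -0.76) correspond to 34.8 and 40.1% of the wt level.

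The genes for maturation of the other end did not pass the test in either mutant. For parn-1 (chromosome V, 12692486 to 12695255, minus strand) the libraries read 6.51, 8.21 and 9.61 CPM for wt, then 9.20, 9.53 and 6.88 CPM for sin-3 and 4.71 and 7.47 CPM for hda-3. The groups overlapped, with log2 fold changes of 0.064 for sin-3 (SE 0.30; -0.59 to 0.72) and -0.42 for hda-3 (SE 0.34; -1.15 to 0.31). For henn-1 (chromosome III, 8232651 to 8234611, plus strand) the libraries read 24.1, 20.1 and 28.97 CPM for wt, then 12.5, 11.5 and 19.2 CPM for sin-3 and 23.3 and 24.1 CPM for hda-3. The sin-3 libraries were all below wt and hda-3, but sin-3 replicate 5 was only just below wt replicate 4. Here the log2 fold change was -0.76 for sin-3 (SE 0.24; -1.28 to -0.23) and -0.043 for hda-3 (SE 0.27; -0.63 to 0.54). Among the differences from wt, that of henn-1 in sin-3 was the nearest outside the threshold (adjusted p = 0.0775) and that of simr-1 in hda-3 the nearest inside it (adjusted p = 0.0480).

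Both sorting genes were called lower in sin-3, and simr-1 also in hda-3. For simr-1 (chromosome I, 5981766 to 5985871, minus strand) the libraries read 50.8, 50.2 and 58.4 CPM for wt, then 24.8, 25.8 and 23.98 CPM for sin-3 and 28.6 and 39.6 CPM for hda-3. The 3 groups did not overlap, and hda-3 lay between sin-3 and wt. A log2 fold change of -1.10 was found for sin-3 (SE 0.18; -1.50 to -0.70) and one of -0.64 for hda-3 (SE 0.20; -1.09 to -0.20). For hrde-2 (chromosome V, 15005100 to 15006400, plus strand) the libraries read 65.1, 57.0 and 72.6 CPM for wt, then 24.01, 26.9 and 35.2 CPM for sin-3 and 50.2 and 46.3 CPM for hda-3. It showed the same order without overlap, with hda-3 nearer to wt. Here the values were -1.17 on the log2 scale for sin-3 (SE 0.20; -1.60 to -0.75) and -0.43 for hda-3 (SE 0.22; -0.91 to 0.045), the latter not called.

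**Figure D1:**
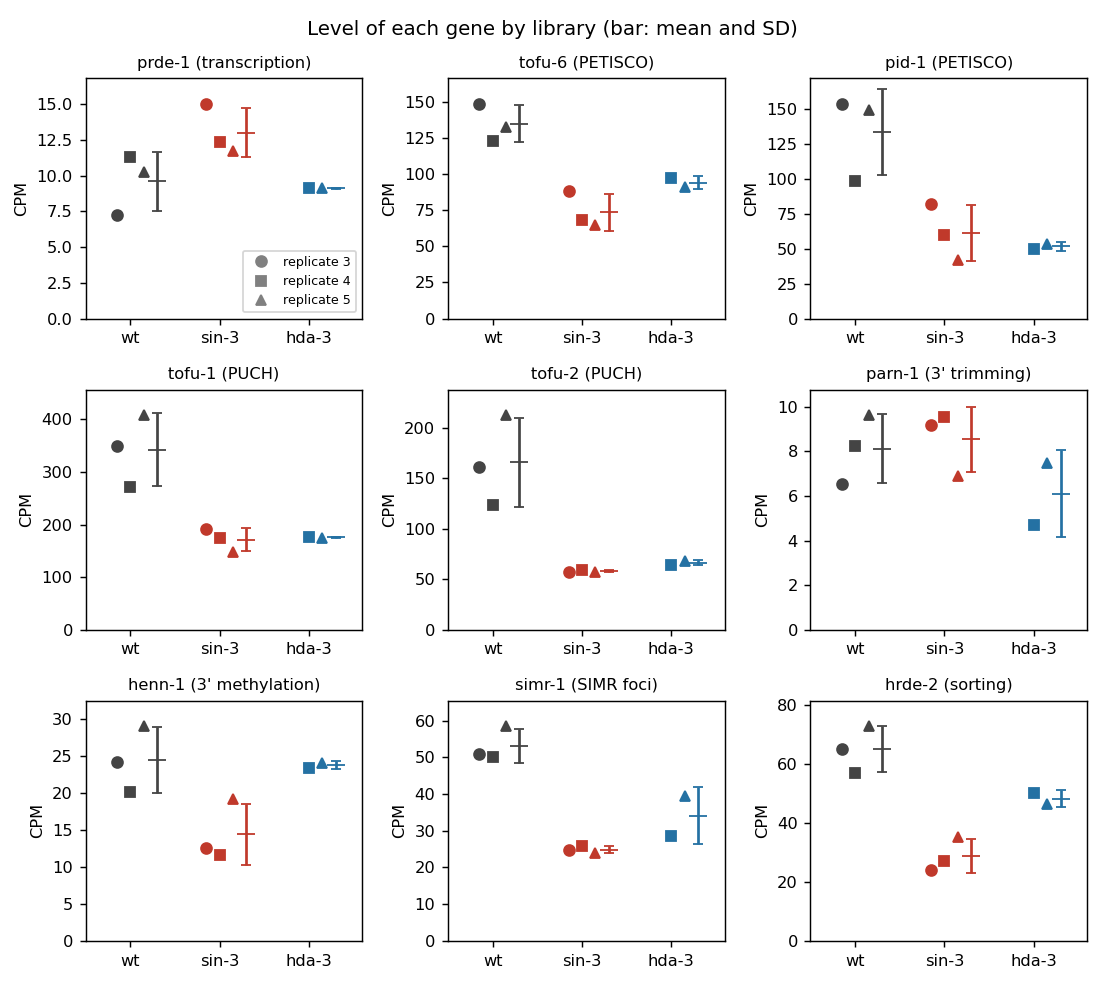
Level of each of the 9 genes in CPM (vertical axes, starting at 0) in every library of wt, sin-3 and hda-3, with the replicate number as the marker shape and the mean and SD beside each group. On this TMM-scaled measure, all mutant libraries of tofu-1, tofu-2, tofu-6, pid-1, simr-1 and hrde-2 lie below all wt libraries, while the sin-3 libraries of prde-1 lie above them.

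In sin-3 against wt 6 of the 9 genes were called lower and 0 higher, where 4.92% of all genes tested were called lower and 2.68% higher. In hda-3 against wt 4 of 9 were called lower and 0 higher, against 4.85% lower and 13.5% higher over all genes. Since these contrasts took part in the choice of the genes, nothing is read from the counts. The median log2 fold change of the 9 was -0.9997 for sin-3 and -0.52 for hda-3, beside 0.12 and -0.022 over all genes tested. Groups did not overlap, with sin-3 lower, for 7 genes (14.4% of all genes tested) and, with sin-3 higher, for prde-1 alone (14.7%). With hda-3 they did not overlap, and hda-3 was lower, for 6 genes (26.7%), and it was higher for 0 (25.4%). The genes tofu-1, tofu-2, pid-1 and simr-1 were called in both mutants, whose comparisons share the wt libraries. In the authors' deposited table the same 6 genes were under an adjusted p of 0.05 in sin-3. For hda-3 the authors' deposited table had 3 of them under it, tofu-1, tofu-2 and pid-1, while simr-1 was not (log2 fold change -0.50, adjusted p = 0.253).

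Single libraries decided several calls. Without 1 library in turn, 2 to 7 of the 9 genes were called lower in sin-3, with 2 without sin-3 replicate 4 and 3 without wt replicate 3 or 5. In hda-3 the range was 0 to 3, with 0 without hda-3 replicate 4, 1 without hda-3 replicate 5 and 2 without wt replicate 3, wt replicate 5 or sin-3 replicate 4. Only tofu-2 and simr-1 kept their sin-3 call in all 8 such fits, with log2 fold changes of -1.69 to -1.301 and -1.14 to -1.02 (adjusted p at most 0.0351 and 0.0411). The sin-3 call of hrde-2 was lost only without sin-3 replicate 4 (-1.10, adjusted p = 0.0507). Those of tofu-1, tofu-6 and pid-1 were kept in 2, 4 and 5 of the 8 fits, with adjusted p up to 0.142, 0.119 and 0.112. For tofu-1 the call ended on leaving out any wt or hda-3 library or sin-3 replicate 4, for tofu-6 wt replicate 3 or 5, sin-3 replicate 4 or hda-3 replicate 5, and for pid-1 wt replicate 3 or 5 or sin-3 replicate 4. With only the 2 groups compared in the fit, these 3 calls also ended (adjusted p = 0.0811, 0.0521 and 0.0508). In hda-3 the call of tofu-2 ended only on leaving out hda-3 replicate 4 (-1.26, adjusted p = 0.0581). For pid-1 it ended when hda-3 replicate 4 (-1.299, adjusted p = 0.0910) or replicate 5 (-1.43, adjusted p = 0.0512) was left out. For tofu-1 it was kept in 3 fits, and ended on leaving out wt replicate 3 or 5, sin-3 replicate 4 or any hda-3 library (adjusted p up to 0.294). The hda-3 call of simr-1 was kept in 0 of them, at -0.89 to -0.41. With RLE scaling factors in place of TMM, the hda-3 calls of tofu-1 (-0.82, adjusted p = 0.0820) and simr-1 (-0.50, adjusted p = 0.109) also ended. The hda-3 call of simr-1 ended as well with DESeq2 (adjusted p = 0.149), with no filter on low counts (0.266) and with only the 2 groups compared (0.103). Without the doubted sin-3 replicate 3, 6 genes were called lower in sin-3. The log2 fold changes of tofu-1, tofu-2, tofu-6, pid-1, simr-1 and hrde-2 stayed below 0 in both mutants in each of the 8 fits.

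**Figure D2:**
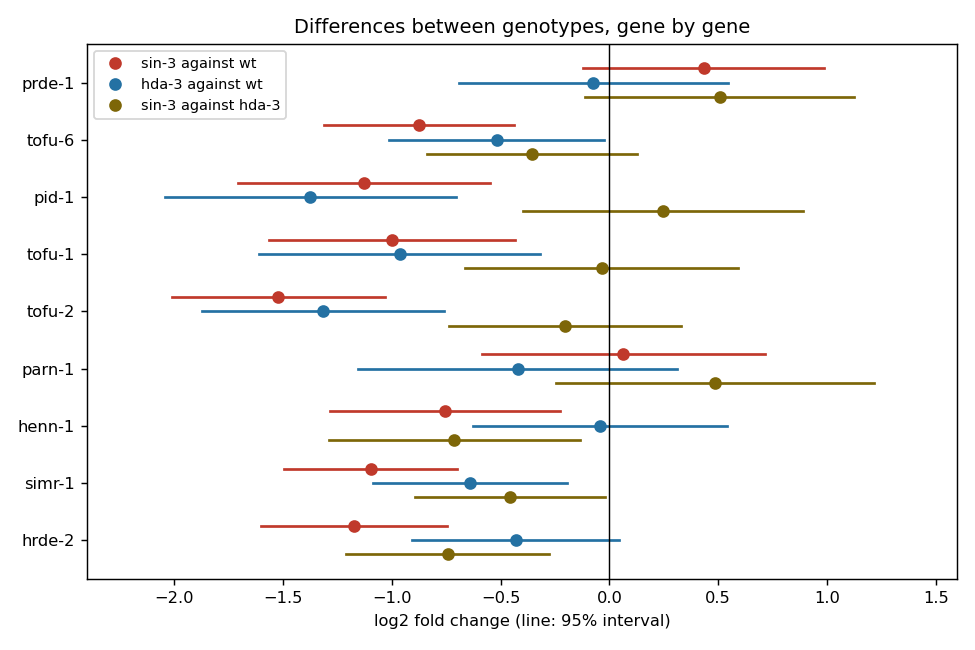
Log2 fold change (points) and 95% interval (lines) of each of the 9 genes in sin-3 against wt, hda-3 against wt and sin-3 against hda-3. The intervals of tofu-1, tofu-2, pid-1, tofu-6 and simr-1 lie below 0 for both mutants, and in sin-3 against hda-3 those of hrde-2, henn-1 and simr-1 do.

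The mutants were also compared with each other, a contrast that the choice of genes did not name but that rests on the same libraries. Only hrde-2 was called, lower in sin-3 than in hda-3 by a log2 fold change of -0.74 (28.7 ± 5.79 against 48.2 ± 2.76 CPM, n = 3 and 2, SE 0.21, edgeR adjusted p = 0.0331). That is 1 of 9 genes lower and 0 higher, where 12.7% of all genes tested were called lower and 2.59% higher. Groups did not overlap, with sin-3 lower, for 5 of the 9 (22.3% of all genes), and with sin-3 higher for prde-1 alone (17.5%). The hrde-2 call was kept in 3 of the 8 fits without 1 library. It was lost without wt replicate 3 (adjusted p = 0.0515), sin-3 replicate 3 (0.104), sin-3 replicate 4 (0.0612), hda-3 replicate 4 (0.204) and hda-3 replicate 5 (0.124), with no filter on low counts (0.0532) and with only these groups in the fit (0.0714). For henn-1 the difference was -0.71 (SE 0.26; interval -1.29 to -0.13; adjusted p = 0.105), at 14.4 ± 4.15 against 23.7 ± 0.549 CPM. It was called in only 1 of 8 fits without 1 library, that without sin-3 replicate 5 (-1.13, adjusted p = 0.00310). Among 7 other settings it was called in 1, with RLE factors (-0.82, adjusted p = 0.0485), and adjusted p was up to 0.167 in the rest. For simr-1 it was -0.46 (interval -0.89 to -0.021; adjusted p = 0.175). The processing genes did not differ detectably, with intervals of -0.66 to 0.59 for tofu-1, -0.74 to 0.33 for tofu-2, -0.84 to 0.13 for tofu-6 and -0.40 to 0.89 for pid-1. For prde-1 and parn-1 the differences were 0.51 (-0.11 to 1.13) and 0.49 (-0.25 to 1.22).

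Ratios of reads within a library do not depend on the scaling between libraries. They were chosen after the values were seen and are given without a test. Reads of tofu-2 per read of tofu-1, the subunits of PUCH, numbered 0.460, 0.458 and 0.521 for wt, then 0.29995, 0.336 and 0.386 for sin-3 and 0.366 and 0.392 for hda-3. All 5 mutant libraries were below wt, so the catalytic subunit had fewer reads relative to its partner there. Reads of tofu-2 per read of prde-1 numbered 22.1, 10.97 and 20.7 for wt, then 3.83, 4.77 and 4.85 for sin-3 and 7.08 and 7.47 for hda-3. Here the 3 groups did not overlap. Reads of pid-1 per read of tofu-6 numbered 1.03, 0.80015 and 1.13 for wt, then 0.933, 0.881 and 0.652 for sin-3 and 0.509 and 0.592 for hda-3. This ratio was below wt in both hda-3 libraries, whereas sin-3 overlapped wt. PID-1 and TOST-1 are alternative PETISCO adaptors, and pid-1 per tost-1 was 5.43, 3.80 and 7.29 for wt, then 3.22, 3.58 and 3.92 for sin-3 and 2.99 and 3.27 for hda-3. The hda-3 libraries were below wt, and sin-3 replicate 5 overlapped wt replicate 4. Reads of hrde-2 per read of simr-1 overlapped in all groups, from 0.969 to 1.75.

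**Figure D3:**
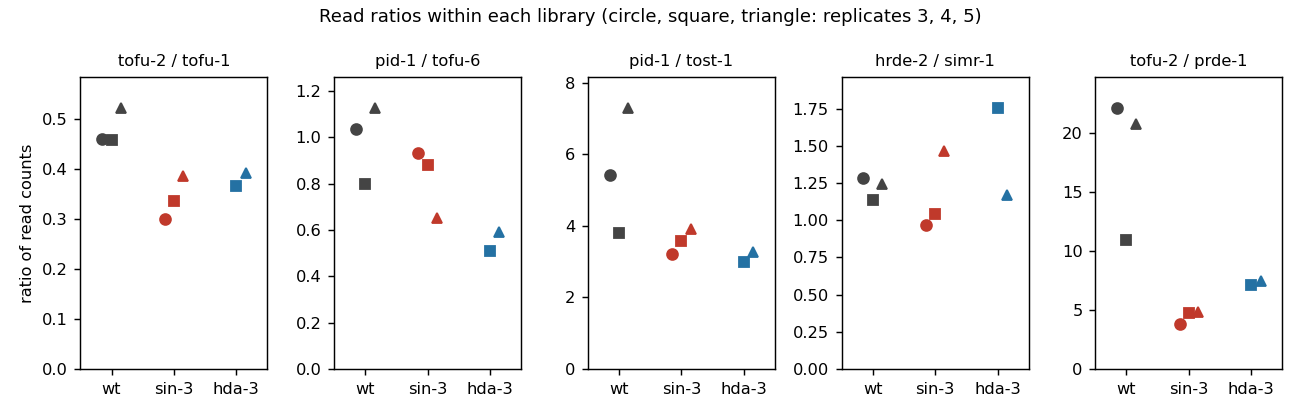
Ratio of read counts of gene pairs within each library (vertical axes, starting at 0) by genotype, with marker shapes for the replicate numbers. The tofu-2 to tofu-1 ratio is 0.458 to 0.521 in wt and at most 0.392 in the mutants, and the tofu-2 to prde-1 ratio separates all 3 groups.

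The other subunits of the same complexes were read next, from a pathway list of 57 further genes, of which 54 were matched by symbol and 53 tested. In PETISCO ife-3, which encodes the cap-binding subunit, fell in both mutants. Its libraries read 253, 183 and 229.9 CPM for wt, then 127.9, 112 and 73.5 CPM for sin-3 and 93.9 and 108 CPM for hda-3. No mutant library reached wt, with log2 fold changes of -1.09 for sin-3 (SE 0.26, edgeR adjusted p = 0.0289) and -1.14 for hda-3 (SE 0.29, adjusted p = 0.0179). Without 1 library in turn the calls were kept in 5 and 3 of the 8 fits (adjusted p up to 0.1003 and 0.214). Both ended on leaving out wt replicate 3, wt replicate 5 or sin-3 replicate 4, and that in hda-3 also on leaving out either hda-3 library. The remaining subunits were not called. In sin-3 the values were -0.66 for pid-3 (adjusted p = 0.158), -0.75 for erh-2 (adjusted p = 0.0641) and -0.51 for tost-1 (adjusted p = 0.280). In hda-3 they were -0.57, -0.31 and -0.59 (adjusted p = 0.241, 0.427 and 0.233). All 4 PETISCO partners thus had values below 0 in both mutants, as had 33 of the 53 partners tested in sin-3 and 36 in hda-3.

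Partners of the other steps mostly did not pass the test. The Schlafen-like PUCH genes slfl-3 and slfl-4 were scarce, at 4.95 ± 1.70 and 1.93 ± 0.305 CPM in wt, and were not called, with sin-3 values of 0.38 for slfl-3 and -0.21 for slfl-4, and hda-3 values of -0.036 for slfl-3 and -0.83 for slfl-4. Of the transcription partners, snpc-4, tofu-4, tofu-5 and isw-1 had sin-3 values of -0.11, 0.29, -0.42 and -0.37 and, in the same order, hda-3 values of -0.20, 0.27, -0.50 and -0.30, none called. The gene snpc-1.3, known for piRNA transcription in the male germ line, was at 0.351 ± 0.143 CPM in wt, 0.816 ± 0.248 in sin-3 and 1.361 ± 0.528 in hda-3, with 2 to 10 reads per wt library. Of the wt libraries 0 reached the level set by the filter for this gene, so its value of 1.91 in hda-3 is imprecise. That value missed the threshold (adjusted p = 0.0509). It was called in 3 of 7 other settings and 2 of 8 fits without 1 library. The calls came with RLE factors (adjusted p = 0.0393), with DESeq2 (0.0332), with only the 2 groups compared (0.0188) and on leaving out sin-3 replicate 4 (0.0430) or 5 (0.0192). Fits without a call included the replicate block (adjusted p = 0.0982) and that without wt replicate 4 (0.134). The Argonaute gene prg-1 was at 229 ± 73.3 CPM in wt, 198 ± 26.7 in sin-3 and 182 ± 39.4 in hda-3. Its groups overlapped, at -0.21 (adjusted p = 0.678) and -0.33 (adjusted p = 0.535). The gene unc-130 was not tested, for too few reads.

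Over all 53 tested partners, 4 were called lower and 1 higher in sin-3, and 4 lower and 2 higher in hda-3, shares of 7.55 and 1.89% and of 7.55 and 3.77%. The lower shares lie near the 4.92 and 4.85% of all genes, so the partners as a whole are no result. Between the mutants 3 were lower and 1 higher in sin-3, shares of 5.66 and 1.89% beside 12.7 and 2.59%. Besides ife-3, the endonuclease gene rde-8 (-1.005, adjusted p = 0.0289, and -0.87, adjusted p = 0.0417) and the double-stranded RNA-binding protein gene rde-4 (-0.78, adjusted p = 0.0416, and -0.81, adjusted p = 0.0285) fell in sin-3 and in hda-3. The rde-8 calls were kept in 5 and 3 of 8 fits without 1 library, the rde-4 calls in 1 and 3. Leaving out wt replicate 3, wt replicate 4 or sin-3 replicate 4 ended all of these calls, leaving out either hda-3 library ended those in hda-3, and the sin-3 call of rde-4 stood only without sin-3 replicate 3. With only the 2 groups compared in the fit, 0 of the 4 partners lower in sin-3 were called. The hda-3 calls of rde-8 and rde-4 also ended with RLE factors, with DESeq2 and with no filter on low counts, and the sin-3 call of rde-4 with RLE factors. The gene pid-4, which encodes a germ granule protein of the piRNA pathway, fell in sin-3 (17.6 ± 3.35 to 9.02 ± 0.927 CPM, -0.97, adjusted p = 0.0305, kept in 2 of 8 fits, those without sin-3 replicate 3 or 5) and was lower there than in hda-3 (-1.0006, adjusted p = 0.0153, kept in 6 of 8 and not without either hda-3 library). In hda-3 it was at 18.1 ± 1.82 CPM (0.035, adjusted p = 0.939). The Argonaute gene wago-4 fell in hda-3 (-0.85, adjusted p = 0.0435, kept in the 3 of 8 fits without wt replicate 3, sin-3 replicate 3 or sin-3 replicate 5, and not with RLE factors or DESeq2) and had a value of -0.72 in sin-3 (adjusted p = 0.0776). The median over the 53 partners was -0.19 for sin-3 and -0.14 for hda-3.

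The 3 partners called higher in a mutant belong to the list of 10 genes of the 26G RNAs, which are bound by other Argonautes and in part also methylated by HENN-1. Of these 10, 1 was called higher and 1 lower in sin-3, where 2.68% of all genes were called higher and 4.92% lower. In hda-3 2 were called higher and 1 lower, where the shares of all genes were 13.5 and 4.85%. The lower gene was rde-4 in both. The eri-9 libraries read 38.8, 36.8 and 40.3 CPM for wt, then 86.2, 80.4 and 95.6 CPM for sin-3 and 44.2 and 47.4 CPM for hda-3. The gene rose in sin-3 against wt (1.18, SE 0.17, adjusted p = 0.00307), a call kept in all 8 fits without 1 library. It was also higher there than in hda-3 (0.93, adjusted p = 0.00448), a call lost without either hda-3 library (adjusted p up to 0.1098). The Argonaute genes alg-3 and alg-4, which act in spermatogenesis, were nearly without reads in wt. The alg-3 reads numbered 8, 6 and 10 for wt, then 9, 38 and 20 for sin-3 and 557 and 330 for hda-3. The alg-4 reads numbered 5, 2 and 5 for wt, then 2, 19 and 18 for sin-3 and 932 and 469 for hda-3. Of the wt libraries 0 reached the level set by the filter on low counts for either gene, whereas 2 sin-3 libraries and both hda-3 libraries did. Both genes were called higher in hda-3 than in wt (adjusted p = 1.14e-04 and 3.42e-05) and than in sin-3 (adjusted p = 2.32e-04 and 5.26e-05). With so few reads in wt and sin-3 the size of these differences is imprecise and is not given. The summed share of the spermatogenesis marker list moved with them: its 13 genes together took 0.192 to 0.253% of reads outside ribosomal RNA in hda-3, 0.00316 to 0.00361% in wt and 0.00202 to 0.00924% in sin-3, with all 13 detected in each group. Its genes did not move as one. Reads of spe-44 numbered 141, 148 and 350 for wt, then 69, 116 and 197 for sin-3 and 538 and 287 for hda-3. Those of gsp-3 numbered 25, 14 and 11, then 1, 124 and 78, and 6089 and 3190. These reads are not scaled to library size. As shares of reads outside ribosomal RNA, both genes were higher in hda-3 than in wt, while spe-44 was lower in sin-3 than in wt. The part of these markers in the result was not tested.

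**Figure D4:**
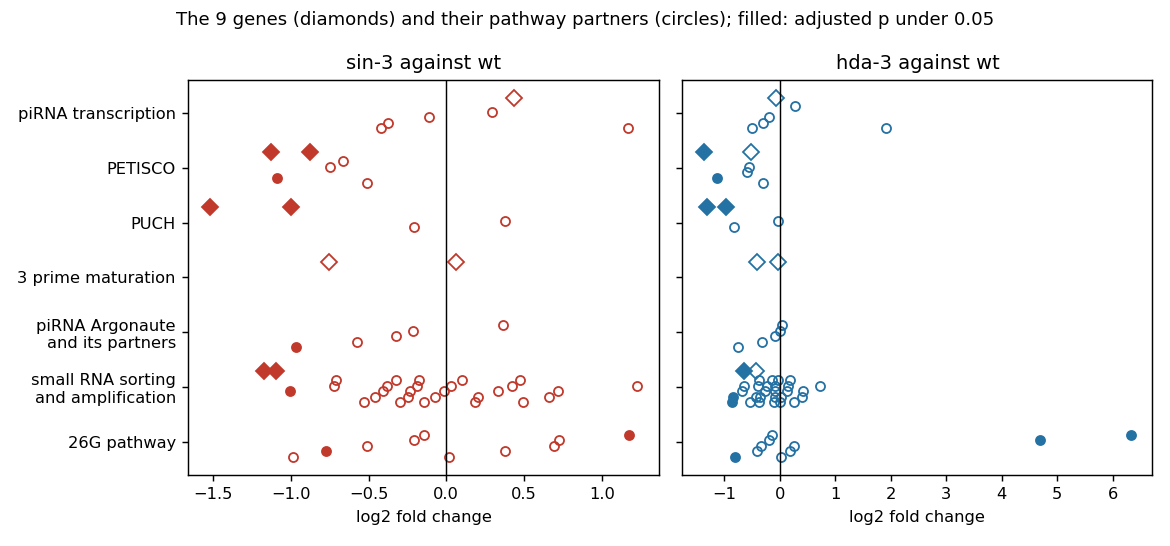
Log2 fold change of the 9 genes (diamonds) and their tested pathway partners (circles) by pathway step in sin-3 against wt and hda-3 against wt, filled where the adjusted p was under 0.05. On horizontal scales that differ between the panels, the diamonds of PETISCO, PUCH and sorting lie left of 0 in both panels, and the filled circles far to the right in hda-3 are alg-3 and alg-4.

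Several measures moved with the genotypes beside these genes. In dissected gonads, fewer cells of a type and less RNA per cell cannot be told apart. Marker lists are given as shares of reads outside ribosomal RNA, without the TMM factors that scale CPM. Their shares therefore cannot be set against the CPM of the 9 genes. The 13 germ cell markers, all detected, took 0.348 to 0.425% in sin-3, 0.317 to 0.358% in hda-3 and 0.205 to 0.325% in wt. The 12 oocyte markers took 2.07 to 3.67, 1.53 to 1.64 and 1.89 to 3.59%, lowest in hda-3. Markers of other tissues were scarce but not at 0. The 11 somatic gonad markers took 0.0214 to 0.0412, 0.00824 to 0.0107 and 0.00893 to 0.0224%. The 8 muscle markers took 0.0436 to 0.137, 0.0310 to 0.106 and 0.0211 to 0.0270%, and the 10 intestine markers 0.00562 to 0.0246, 0.0434 to 0.0710 and 0.000935 to 0.00588%. The 7 epidermis markers took 0.0129 to 0.0540, 0.0246 to 0.0412 and 0.00879 to 0.0100%, and the 7 neuron markers 0.00640 to 0.00980, 0.00758 to 0.0103 and 0.00627 to 0.00789%, with rab-3 at 0 in wt. Their part in the differences of the 9 genes was not tested.

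Expression level moved with the difference too. The 586 genes tested with a mean of at least 100 CPM had a median log2 fold change of -0.53 for sin-3 and -0.74 for hda-3, with 7.34 and 14.2% called lower. The genes tofu-1, tofu-2 and tofu-6 belong to this class. In sin-3 all of these lay below its median, and in hda-3 tofu-1 and tofu-2 did while tofu-6 (-0.52) did not. The 3640 genes at 10 to under 100 CPM, which include pid-1, simr-1, hrde-2, henn-1 and prde-1, had medians of -0.093 and -0.15, with 9.75 and 8.02% called lower. The gene parn-1 lay in the class under 10 CPM, with medians of 0.51 and 0.34. Exon length moved with it as well. Genes with under 1000 exon bases, among them pid-1 with 688, had medians of -0.0096 and -0.24, and those with 1000 to under 2000 bases, among them the rest except simr-1 with 3089, had 0.14 and 0.027. All 9 genes are autosomal, where the medians were 0.047 and -0.055, beside 0.70 and 0.32 on the X chromosome. The part of level, length or chromosome in these results was not tested.

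The genes whose profile over the 8 libraries was nearest to each called gene were named as a description, out of 4225 genes of at least 10 CPM. Nearness is the root mean square difference of log2 CPM, each profile centred on its own mean. For tofu-1 they were apc-11, mrps-18.C and sna-1 (0.0890 to 0.10005), and for pid-1 pfd-6, Y110A2AR.1 and tac-1 (0.0866 to 0.129). For simr-1 they were hpo-31, K03B4.1 and F25B5.5 (0.0942 to 0.1199), and for tofu-6 seip-1, sucl-2 and dylt-1 (0.107 to 0.111). For hrde-2 they were F58H1.8, tbc-3 and ZK643.2 (0.115 to 0.141). For tofu-2, whose own profile varied most about its mean (0.711, against 0.408 to 0.671 for the others), they were C29A12.1, C26F1.3 and ubh-2 (0.175 to 0.184). The measure is not scaled to that variation. None of the nearest genes was another of the 9 or a listed partner.

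Reads on annotated 21U-RNA genes, the loci of piRNAs themselves, were a readout that the choice of genes did not use. Mature piRNAs and their short precursors are not the substrate of a Smart-seq2 type library, so these reads do not measure piRNAs. Of 15363 such genes 918 had a read, and 78.0% of their 8313 reads lay on 21ur-328 (chromosome IV, 16613398 to 16613418, minus strand), which no other annotated gene overlaps. Per 1000000 reads outside ribosomal RNA they numbered 105 ± 39.9 in wt (n = 3), 147 ± 51.0 in sin-3 (n = 3) and 105 ± 23.8 in hda-3 (n = 2). The groups overlapped, with exact two-sided permutation p = 0.3 for sin-3, 1.0 for hda-3 and 0.4 between the mutants (0.6, 1.0 and 0.6 adjusted over the 3). The smallest p these group sizes allow is 0.1.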

How the data were processed

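Per the labels' protocols, single reads of 50 bases were sequenced. The authors deposited raw read counts, whole numbers for each gene, in 1 file per library. Tools named in the submitters' processing notes, without their roles, are DESeq2 1.36.0, HTSeq 0.7.2, STAR 2.7.3a and fastp 0.20.1. The genome build, the settings and any strand setting were not given in the sources used here. Coordinates and exon lengths are from the WBcel235 annotation (Ensembl release 115), which held 46923 of the 46934 identifiers. Counter lines that name no gene stayed out of library sizes: 1.06 to 2.27% of reads on no feature, 0.673 to 1.55% ambiguous and 3.03 to 5.57% aligned to several places. Without strand, reads of overlapping genes cannot be told apart. Of the 9 genes 6 share a span with other coding genes (tofu-6, pid-1, prde-1, parn-1, henn-1 and hrde-2), with at most 86 shared exon bases (henn-1 with C02F5.14). The overlapping genes had 0.1001 to 2.17% of the reads of their partner, except fbxl-1 beside henn-1 (19.9%).

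The test was edgeR's (version 4.0.16, R 4.3.3) robust quasi-likelihood fit with TMM factors and filterByExpr (minimum count 10, minimum total 15), all 8 libraries in 1 model with a term per genotype, and Benjamini-Hochberg adjustment over the 10302 genes kept. The SE is the log2 fold change divided by the root of F. CPM uses TMM-scaled library sizes, ribosomal RNA included, whose factors ran from 0.424 to 2.30. They were 0.547, 0.631 and 0.960 for wt, 0.424, 1.198 and 2.297 for sin-3, and 1.616 and 1.601 for hda-3. Both hda-3 factors were thus above every wt factor. Without the factors, as shares of reads outside ribosomal RNA, tofu-6, hrde-2, prde-1 and henn-1 were higher in hda-3 than in wt. On those shares tofu-1, simr-1 and parn-1 overlapped wt in hda-3, and tofu-2 and pid-1 stayed below wt. In sin-3 the shares of tofu-1, tofu-2, tofu-6, simr-1, hrde-2 and henn-1 overlapped wt. There pid-1 was only just below wt, and prde-1 and parn-1 were above it. The lack of overlap in CPM thus depends on the factors for most of these genes in sin-3 too. Fits with DESeq2 1.42.0, limma 3.58.1 voom and other settings, and without each library, were run. The model was also run on simulated counts. These were drawn from the wt means for all libraries, so they cannot judge the TMM scaling, and nothing is concluded from them here. The authors' deposited tables hold DESeq2 output for each gene: a log2 fold change, a p-value, a mean normalised signal and a statistic (score), per the file headers. Same-numbered libraries did not all deviate together (r from -0.20 to 0.29, over 0.1 in 2 of 7 pairs), so numbers were not taken as pairs. The labels call the replicates biological and independent without naming days, so p-values measure the spread between these libraries. Replicates differed far beyond sampling noise. The 9 genes and the pathway and marker lists were chosen with earlier results of these data known. All 9 genes are named. Partners are named where called or in a complex with one of the 9, as are the 3 nearest profiles of each called gene. The listed names tofu-3, prg-2, wago-3 and the marker tnsf-1 were not matched and are not analysed here. Sequences of these genes are not used here.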

Additional observations from a re-analysis of the deposited data

How the results depend on the processing

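Of 1032 refitted values of single genes, 885 kept direction and side of the threshold, 105 lost and 13 gained a call, and 29 changed sign, of which 0 were called in either fit. Calls among all genes are given as percents of the 10302 genes. For sin-3 compared with wt, 2.68% called higher and 4.92% called lower became 5.66% higher with DESeq2, 6.68% higher with no filter on low counts (50.1% of calls were then higher, against 35.2%) and 3.04% lower with only the 2 groups compared, and ran from 0.301 to 6.73% higher and from 1.38 to 7.38% lower without 1 library. Calls among the 9 genes fell from 6 to 3 with only the 2 groups compared (2 to 7 without 1 library). Partners were 2 higher with DESeq2 and with the replicate block, and 0 lower with only the 2 groups compared (0 to 6 without 1 library). In hda-3 against wt 4.85% lower became 2.31% with RLE factors and 3.13% with the replicate block (0.514 to 7.81% without 1 library). The 9 genes went from 4 to 2 lower with RLE factors and with the replicate block (0 to 3 without 1 library). Partners went to 4 higher with only the 2 groups compared (2 to 5 without 1 library), and to 1 lower with RLE factors and with DESeq2 and 2 with no filter and with the replicate block (0 to 5 without 1 library). RLE factors shifted the median of all genes in hda-3 by 0.14, and the share of higher calls from 73.5 to 86.1%. In sin-3 against hda-3, 2.59% higher ran from 0.854 to 5.09% without 1 library. The 9 genes had 2 lower with RLE factors, 0 with no filter and 0 with only the 2 groups compared (0 to 2 without 1 library), and partners had 0 to 1 higher and 2 to 6 lower without 1 library. Sign changes concerned values near 0. In hda-3 prde-1 was 0.0705 with RLE factors and with DESeq2 and 0.10005 with only the 2 groups compared (-0.24 to 0.11 without 1 library). There henn-1 was 0.10 with RLE factors and with DESeq2, 0.0264 with no filter and 0.13 with only the 2 groups compared (-0.17 to 0.13), and slfl-3 was 0.11 with RLE factors and with DESeq2, 0.0286 with no filter and 0.13 with only the 2 groups compared (-0.27 to 0.24). The hda-3 value of pid-4 was -0.0573 with the replicate block (-0.10 to 0.21). In sin-3 parn-1 was -0.0140 with limma voom (-0.0697 to 0.23), slfl-4 ran from -0.57 to 0.0812, and pid-1 against hda-3 from -0.0199 to 0.31. The difference of hda-3 from wt in reads per 1000000 on 21U-RNA genes, 0.892, was -4.77 without loci of 10 or more reads and -18.5 to 21.4 without 1 library, and 10.1 with all reads on genes as the denominator. That of sin-3 from wt, 42.0, was 16.6 and 11.2 under these 2 settings and 22.7 to 71.0 without 1 library, and that between the mutants, 41.1, was 21.4 and 1.11, and 22.1 to 70.1. The cause of these changes was not tested, beyond fewer libraries in a fit. With 1 hda-3 library left, it is assumed to vary like the other groups. The replicate block was no pairing in the design, since same-numbered libraries did not all correlate. It gave henn-1 a lower call in sin-3 (-0.77, adjusted p = 0.0354) and ended the hda-3 calls of tofu-1 (-0.91, adjusted p = 0.0924), simr-1 (-0.67, adjusted p = 0.0501), rde-8 and ife-3. Among the 9 genes the depth limits prde-1 and parn-1 most, with 77 to 614 reads per library. The partners snpc-1.3, alg-3 and alg-4 had 2 to 10 reads per wt library.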
